A study of Mus musculus with 19 samples.

Results

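The 10 genes described here encode 8 members of the carbonic anhydrase family (Car2, Car3, Car4, Car8, Car9, Car10, Car11 and Car14) and 2 sodium bicarbonate transporters (Slc4a4 and Slc4a10). They were taken by gene symbol from the annotation of an Affymetrix expression array, which gave 10 genes of 18193 and 21 probe sets of 45037. The symbols were listed with earlier results of these tumours known, so their differences from vehicle are given as a description, with no p-value, and their calls only as counts beside those of the whole array. Of the 21 probe sets, 15 were brighter than the 40th percentile of all signals on 3 or more arrays and entered the fit with 31143 probe sets in all. The 6 that did not were 1 of the 2 for Car10, 1 of the 4 for Car3, 2 of the 3 for Car8 and 2 of the 5 for Slc4a4.

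Expression was measured in 19 subcutaneous mouse medulloblastomas, each on 1 array. There were 8 tumours treated at 160 mg/kg with NVP-LDE225, 8 treated at 40 mg/kg and 3 from mice given vehicle. NVP-LDE225 inhibits Smoothened, the membrane protein that passes on the Hedgehog signal. All treated tumours were labelled resistant and all vehicle tumours sensitive, so drug treatment and resistance cannot be told apart. Every group, vehicle included, carried the genotype Ptch+/-p53-/-, in which 1 copy of the Hedgehog receptor Ptch and both copies of p53 are inactivated. Tumour cells were dissociated straight from medulloblastomas and grafted under the skin of the flank of nu/nu mice, which lack most T cells, so skin, muscle, fat and blood of the host could enter the RNA. The sources used here give no ages, treatment times or number of donor tumours. Whether tumours of a group share a donor is not stated, so the p-values rest on the spread among these 19 grafts only. In bulk tissue, fewer cells of a type and less RNA per cell cannot be told apart.

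Values are MAS5 signals on a linear scale, with a trimmed mean of 150 on every array and array medians between 32.7 and 49.7. The cut for a kept probe set lay between 19.7 and 33.3 depending on the array. Transcription factor genes of the granule neuron lineage were summed over the 11 measured genes of the list, all past the filter. The tumours arise in precursors of this lineage, but the list also holds genes of differentiating neurons, such as Neurod1 and Neurod2. The sum is thus no measure of precursors alone. Single genes of the list went both ways, with log2 differences of both doses from vehicle of -0.87 to 1.305. Their summed signal was 13234 to 21874 at 160 mg/kg and 15107 to 18751 at 40 mg/kg, against 10818 to 12029 in vehicle. Pairwise correlations of arrays ran from 0.908 to 0.963. The arrays least like the others were vehicle tumour 3 and 160 mg/kg tumour 2.

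Carbonic anhydrases interconvert carbon dioxide and water with bicarbonate and a proton, and so set pH inside cells and at their surface. Car4 is held on the outer face of the membrane by a lipid anchor, Car9 and Car14 span the membrane, and Car2 and Car3 are cytosolic enzymes. Car8, Car10 and Car11 are related proteins without the catalytic activity. Slc4a4 and Slc4a10 move bicarbonate together with sodium across the cell membrane, in glia and epithelia for Slc4a4 and in neurons and choroid plexus for Slc4a10. In cerebellum Car8 is best known from Purkinje cells, and Car9 is a widely used marker of hypoxia in tumours.

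RefSeq promoters, from 250 bases before to 50 bases after a transcription start on GRCm38.p6, were found for 7 of the 10 genes in 11 entries. None was used for Car2, Car3 and Car8. The promoters of Car9, Car4 and Slc4a10 are shown because Car9 is a textbook target of the hypoxia-inducible factor HIF, and because Car4 and Slc4a10 differed from vehicle in all 16 treated tumours. Capitals mark the HIF core ACGTG, on either strand, in the promoters of Car9 and Car4, and the E-box CANNTG, the motif of basic helix-loop-helix factors, in the first of the 2 entries of Slc4a10.
Car9, chr4:43506776-43507075, plus strand: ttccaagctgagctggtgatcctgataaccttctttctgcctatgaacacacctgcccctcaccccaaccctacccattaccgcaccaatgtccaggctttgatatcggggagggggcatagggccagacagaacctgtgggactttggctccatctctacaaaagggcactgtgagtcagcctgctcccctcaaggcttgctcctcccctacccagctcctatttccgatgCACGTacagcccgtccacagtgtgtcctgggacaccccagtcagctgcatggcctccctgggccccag
Car4, chr11:84957504-84957803, plus strand: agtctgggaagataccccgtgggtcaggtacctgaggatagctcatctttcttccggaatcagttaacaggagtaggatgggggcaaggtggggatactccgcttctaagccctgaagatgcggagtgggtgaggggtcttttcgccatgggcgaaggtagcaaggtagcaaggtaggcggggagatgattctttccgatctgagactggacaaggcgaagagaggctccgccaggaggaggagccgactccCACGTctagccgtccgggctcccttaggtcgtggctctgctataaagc
Slc4a10, chr2:62046265-62046564, plus strand: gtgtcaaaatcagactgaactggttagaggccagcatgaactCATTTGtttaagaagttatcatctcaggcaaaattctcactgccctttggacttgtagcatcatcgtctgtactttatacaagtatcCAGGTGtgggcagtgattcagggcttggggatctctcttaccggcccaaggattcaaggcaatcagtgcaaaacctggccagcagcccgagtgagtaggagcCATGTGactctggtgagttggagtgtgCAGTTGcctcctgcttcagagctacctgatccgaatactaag
The match in Car9 began at position -18 from the start and that in Car4 at position 3, both reading CACGT on the plus strand. The HIF core occurred in 19.6% of the 32851 full-length promoter entries counted, a set that leaves out 1 chromosome. Car14 and 1 of the entries of Car10 held 1 each. The 4 E-boxes of that Slc4a10 entry began at -208, -121, -19 and 9, the other entry, chr2:62147628-62147927, held 0, and 72.3% of the promoters counted held at least 1. A sequence CACGTG would count for both motifs, and none of the marked matches read so. The interferon-stimulated response element and the Gli motif TGGGTGGTC, present in 3.44% and 0.253% of the promoters counted, had 0 matches in the 11 entries. A match or its absence in these windows describes letters only.

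Car4 was lower in all treated tumours than in any vehicle tumour. Its probe set 1418094_s_at had a lowest signal of 17.9, a median of 70.2 and a highest of 185.4 at 160 mg/kg, and 38.0, 92.55 and 385.2 at 40 mg/kg, against 534.8, 707.6 and 702.7 in the 3 vehicle tumours. The probe set 1448949_at ran from 12.9 to 168.0 at 160 mg/kg and from 31.6 to 493.2 at 40 mg/kg, against 733.8, 944.7 and 784.5 in vehicle. Neither probe set overlapped between treated and vehicle tumours, and their values followed each other closely across the 16 treated tumours (Pearson r = 0.986). On the log2(signal + 2.5) scale the mean of both doses minus vehicle was -2.80 (SE 0.60) and -3.22 (SE 0.70), which is 6.97-fold and 9.35-fold lower. Among the treated tumours Car4 still spanned 21.5-fold by the first probe set, and the brightest tumours were 40 mg/kg tumours 6 and 8 at 385.2 and 285.9.

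The summed signals of interferon response genes and of skin epithelium markers were also lower in most treated tumours than in vehicle, and their part in the difference of Car4 was not tested. The summed signal of the 16 measured interferon genes was 657 to 3175 at 160 mg/kg and 1262 to 5357 at 40 mg/kg, against 4854 to 7138 in vehicle. The tumours with the most Car4 among the treated, 40 mg/kg tumours 6 and 8, had sums of 5357 and 5164, inside the vehicle range. The sum of the 4 measured skin genes (Krt5, Krt10, Lor and Perp) was 331 to 3435 at 160 mg/kg and 2308 to 5350 at 40 mg/kg, against 5207 to 5958 in vehicle, with 5350 and 4511 in 40 mg/kg tumours 6 and 8. The keratins Krt1, Krt14 and Krt15, with Flg and Dsg1a, did not pass the filter. Nearly all of the sum was Krt10, at 1914 ± 1168 at 160 mg/kg and 3605 ± 1030.4 at 40 mg/kg, against 5509 ± 371 in vehicle (SD, n = 8, 8 and 3). The log2 differences of the 4 skin genes from vehicle ran from -1.31 to 0.91, the positive one that of Perp, and 0 were called in limma, all 4 having an unadjusted p under 0.05.

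Car9 signals overlapped between the groups. They ran from 16.3 over a median of 35.9 to 151.5 at 160 mg/kg and from 1.8 over 32.8 to 44.4 at 40 mg/kg, against 3.9, 20.4 and 39.0 in vehicle. The tumour at 151.5 stood well above the other 160 mg/kg tumours, whose highest signal was 41.2. The mean of both doses was 0.85 (SE 0.61) above vehicle on the log2 scale, with 4 treated tumours above all vehicle tumours and 1 below. The difference was 0.10 without vehicle tumour 1, which held the signal of 3.9, 1.45 without vehicle tumour 3 and 1.97 with array weights.

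Car14 ran from 9.2 over 27.95 to 91.5 at 160 mg/kg and from 20.4 over 52.6 to 266.7 at 40 mg/kg, against 13.3, 28.8 and 60.7 in vehicle. The groups overlapped, and the 2 highest signals, 266.7 and 139.9, were both from 40 mg/kg tumours. Its log2 difference from vehicle was 0.03 (SE 0.66) at 160 mg/kg and 1.05 (SE 0.66) at 40 mg/kg, and for both doses together 0.54 (SE 0.61), which was 0.04 without vehicle tumour 1 and 1.04 without vehicle tumour 3.

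**Figure D1:**
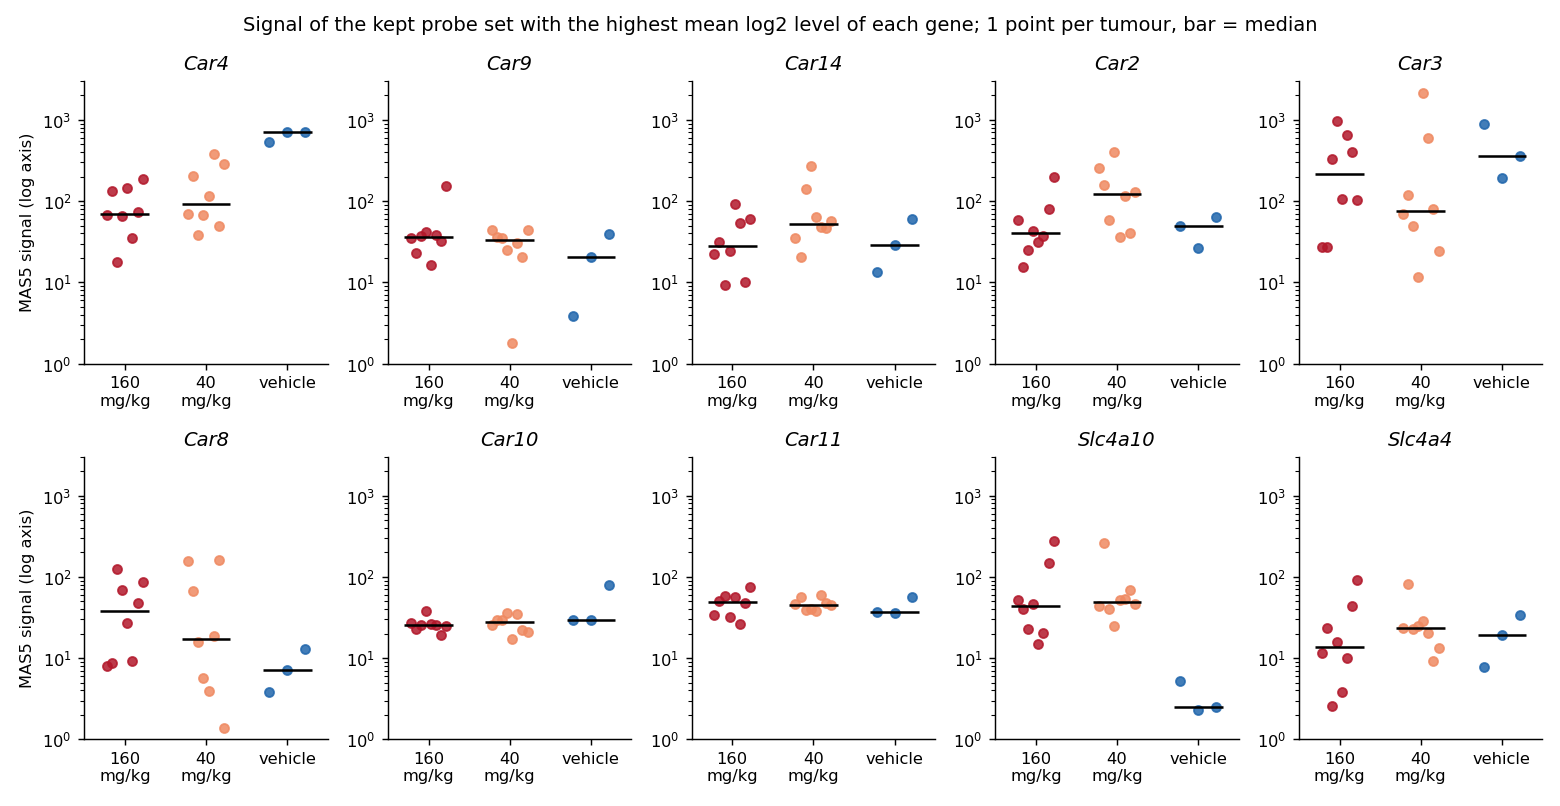
MAS5 signal (log axis) of the 10 genes in each tumour, by group, with 1 point per tumour and a bar at the group median; each gene is shown by its kept probe set with the highest mean log2 level. All 16 treated tumours lie below the 3 vehicle tumours for Car4 and above them for Slc4a10, and the groups overlap for the other 8 genes.

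Among the cytosolic enzymes, Car2 had a wide range that differed in place between the doses. Its signal ran from 15.3 over 40.2 to 197.9 at 160 mg/kg and from 36.0 over 122.95 to 402.6 at 40 mg/kg, against 49.1, 26.3 and 62.9 in vehicle. Above all vehicle tumours lay 2 of the 160 mg/kg and 5 of the 40 mg/kg tumours, and 2 of the 160 mg/kg tumours lay below them. The log2 difference from vehicle was 0.08 (SE 0.66) at 160 mg/kg and 1.30 (SE 0.66) at 40 mg/kg.

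Car3, an enzyme abundant in fat and slow muscle, was the most variable of the 10 genes between tumours of the same dose. The probe set 1449434_at ran from 27.0 over 217.6 to 978.5 at 160 mg/kg and from 11.5 over 74.65 to 2140.4 at 40 mg/kg, against 899.9, 194.2 and 355.1 in vehicle. This is a 186-fold range among treated tumours, and its SD within a dose, 2.16 on the log2 scale, lay at the 99.9th percentile of all kept probe sets. The other well-measured probe set, 1460256_at, ordered the treated tumours in a similar way (r = 0.890), with 14.8 to 110.5 at 160 mg/kg and 13.0 to 317.8 at 40 mg/kg, against 42.8 to 135.5 in vehicle. The dimmer 1430584_s_at, at 2.3 to 34.8 in treated tumours against 11.7 to 30.5 in vehicle, followed them less (r = 0.503 and 0.382). The log2 difference of 1449434_at from vehicle, -1.54 (SE 1.15), was close in size to its error, and was -0.95 without vehicle tumour 1 and -2.29 with array weights.

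Of the inactive relatives, Car8 was low in vehicle and ranged from low to high in treated tumours. Its kept probe set 1427482_a_at ran from 7.9 over 37.8 to 123.9 at 160 mg/kg and from 1.4 over 17.2 to 160.3 at 40 mg/kg, against 3.8, 7.1 and 13.1 in vehicle. In 10 treated tumours it lay above all vehicle tumours and in 1 below them. It passed the filter through treated tumours only, 8 in all, so it had to be higher there. The log2 difference from vehicle was 1.56 (SE 0.96), and 2.33 with array weights. The probe sets that did not pass had signals of 0.3 to 21.4 in treated tumours and 0.8 to 25.9 in vehicle, all below the filter. Of these, 1457904_at lay above all vehicle tumours in 12 treated tumours and followed the kept probe set in part (r = 0.612), whereas 1424958_at lay below all vehicle tumours in 13 (r = 0.434).

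Car10 and Car11 varied less within a dose than the other genes described here. Car11 had a signal of 47.5 ± 15.9 at 160 mg/kg and 46.6 ± 8.11 at 40 mg/kg, against 42.9 ± 11.2 in vehicle (SD, n = 8, 8 and 3). Car10, by 1431288_at, had 26.2 ± 5.26 and 26.96 ± 6.70 at 160 and 40 mg/kg, against 29.4, 29.1 and 79.8 in vehicle. The log2 difference of Car10 from vehicle, -0.61 (SE 0.26), became -0.15 without vehicle tumour 3, which held the signal of 79.8. The other Car10 probe set stayed between 0.5 and 23.0 in every tumour and did not covary with it (r = -0.002).

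Slc4a10 was higher in all treated tumours than in any vehicle tumour. Its single probe set ran from 14.8 over 43.4 to 275.2 at 160 mg/kg and from 24.9 over 48.65 to 258.3 at 40 mg/kg, against 5.2, 2.3 and 2.5 in vehicle. The vehicle signals lay below the filter, so the probe set was kept through treated tumours alone, 14 of 16. The log2 difference was 3.27 (SE 0.63), a 9.64-fold higher level on the scale with 2.5 added, and it was 1.89 with 16 added because the vehicle signals are near the added value. Most treated tumours lay between 14.8 and 68.5, and 3 stood at 148.8, 258.3 and 275.2.

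Slc4a4 was dim and its groups overlapped. By 1452071_at it ran from 2.6 over 13.65 to 90.2 at 160 mg/kg and from 9.1 over 23.25 to 82.1 at 40 mg/kg, against 7.8, 19.5 and 34.2 in vehicle. The 3 kept probe sets differed from vehicle by 0.09 to 0.65 on the log2 scale with errors of 0.65 to 0.80, and correlated with each other at 0.534 to 0.612 across treated tumours. Of these, 1426432_a_at and 1434096_at, which gave the 0.65, passed the filter through treated tumours only, 4 each. That filter favours a higher level in treated tumours.

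Over the whole array 4.47% of probe sets were called in treated against vehicle tumours at an adjusted p under 0.05 in limma, 2.64% higher and 1.83% lower. Of the 15 kept probe sets of these genes 3 were called, Slc4a10 higher and both of Car4 lower, which is no independent result because the genes were chosen with this contrast known and Slc4a10 passed the filter through treated tumours alone. At 160 mg/kg the same 3 were called, where 4.05% of all kept probe sets were, 2.27% higher and 1.77% lower. At 40 mg/kg Slc4a10 was called higher and Car4 lower, Car4 by 1418094_s_at alone, where 2.14% of all were, 1.52% higher and 0.629% lower. With 16 in place of 2.5 added to the signals, Slc4a10 was called in neither dose alone (0 higher and 2 lower calls in each) and still for both doses together. All treated tumours lay above all vehicle tumours for 1.83% and below them for 2.01% of kept probe sets. With 3 vehicle tumours these calls depend on each of them. Without vehicle tumour 1, 2 or 3, the calls against vehicle numbered 1, 1 and 0 for both doses together, 3, 1 and 0 for 160 mg/kg and 1, 0 and 0 for 40 mg/kg. Without vehicle tumour 3 and 160 mg/kg tumour 2 together there were 0 in each. The median log2 difference of the 15 probe sets was 0.11, against -0.06 over all kept probe sets. The 15 include probe sets of Car8, Slc4a10 and Slc4a4 that were kept through treated tumours alone.

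The 2 doses were compared by a contrast that left out the vehicle mean, within the same fit of all 19 arrays. The vehicle tumours thus entered only through the estimate of spread behind the intervals and p-values. No probe set of these genes passed in limma after Benjamini-Hochberg adjustment over 31143 probe sets, 2 had an unadjusted p under 0.05, and 0 of all probe sets (0%) were called, with 2122 at an unadjusted p under 0.05. The largest log2 difference of 160 minus 40 mg/kg was that of Car2, -1.22 (95% interval -2.24 to -0.20, limma adjusted p = 0.676), followed by Car14 at -1.02 (-2.04 to -0.01, limma adjusted p = 0.729). Both were lower at 160 mg/kg by an amount close to the spread between tumours of a dose, whose SD was 1.15 and 1.10 on the same scale.

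The intervals of the other genes included 0 and were mostly wide. The difference of Car4 was -0.60 (-1.59 to 0.39) by 1418094_s_at and -0.85 (-2.02 to 0.31) by 1448949_at, that of Slc4a10 -0.20 (-1.25 to 0.85), that of Car8 0.44 (-1.14 to 2.03), that of Car9 0.56 (-0.45 to 1.57) and that of Car3 0.71 (-1.19 to 2.61). Only Car10 and Car11 had intervals inside 0.5 on either side, -0.45 to 0.40 and -0.41 to 0.36. The spread within a dose of 13 of the 15 probe sets lay above the 95th percentile of all kept probe sets, with Car10 and Car11 at the 43.2 and 58.2 percentiles.

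**Figure D2:**
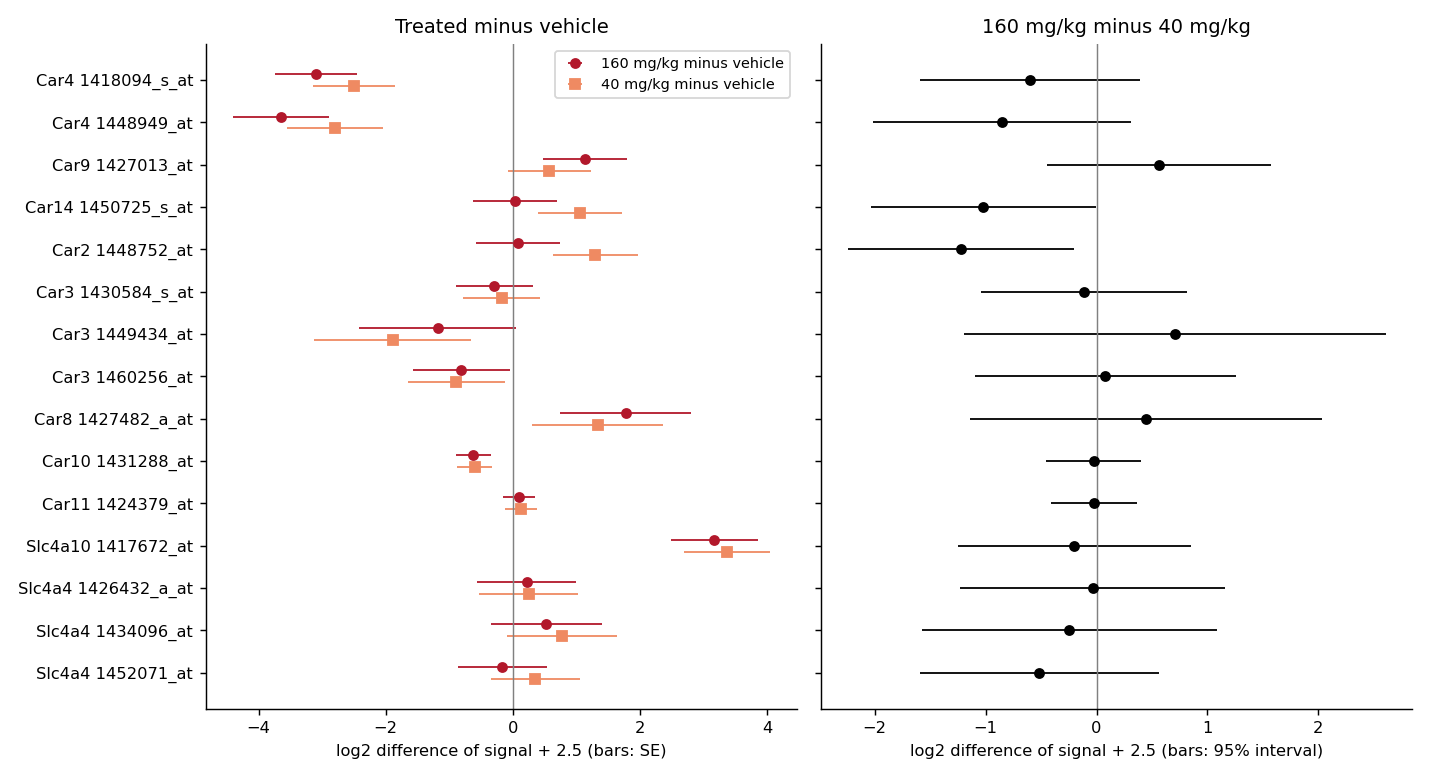
Differences of log2(signal + 2.5) for the 15 kept probe sets; on the left 160 mg/kg (circles) and 40 mg/kg (squares) minus vehicle with bars of 1 SE, on the right 160 minus 40 mg/kg with 95% intervals. Both doses lie left of 0 for Car4 and right of 0 for Slc4a10, and on the right the intervals of Car2 and Car14 end below 0, neither passing after adjustment over all probe sets.

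The treated tumours differed much from each other. Over these 16 tumours each gene was therefore set against the mean log2 level of a gene list. Known sites of expression or regulation pointed to the lists, except for the interferon list set against Car4. All lists were chosen with earlier results of these data known. There were 14 relations of a gene to a list, tested by permutation and adjusted over the 14, and 2 passed.

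Slc4a10 followed the genes of neuronal maturation, the structural and synaptic genes that granule neurons switch on as they leave the cell cycle. Pearson's r with the 20 measured genes was 0.846 (permutation p = 0.00011, adjusted 0.00077) and Spearman's rho 0.771 (permutation p = 0.00073, adjusted 0.00511). The relation held within 160 mg/kg (r = 0.909, exact p = 0.00174, n = 8) and within 40 mg/kg (r = 0.843, exact p = 0.00742, n = 8). It was 0.708 (permutation p = 0.00526) without 40 mg/kg tumour 2 and 160 mg/kg tumour 8, the tumours farthest from the median of the list. Those tumours had Slc4a10 signals of 258.3 and 275.2 and summed neuronal signals of 20074 and 20962, the highest of all. Of the 20 genes, 12 rose in treated tumours against vehicle in limma and 0 fell, at a median log2 difference of 1.06 against -0.06 for all genes. The count was 10, 5 and 4 without vehicle tumour 1, 2 or 3. Over the whole array 2.64% of probe sets were called higher. The list was chosen with earlier results of these data known, so its count and the p-value of Cntn2 are no independent result. Cntn2, which encodes a cell adhesion protein on the axons of young granule cells, was at 438 ± 209 and 465 ± 228 at 160 and 40 mg/kg, against 38.3 ± 5.92 in vehicle (log2 3.34, limma adjusted p = 0.000309).

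Slc4a10 did not pass against the choroid plexus list (r = 0.193, adjusted permutation p = 0.472). Of the 8 listed choroid plexus genes Clic6, Folr1 and Otx2 were measured, and Ttr, Kl and Kcnj13 did not pass the filter. The genes closest to Slc4a10 among 12725 compared were Adcy1 (r = 0.955), Fgf14 (0.925) and Bend6 (0.924), given as a description. Adcy1 encodes an adenylyl cyclase abundant in neurons and Fgf14 a partner of neuronal sodium channels.

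Car3 followed adipocyte genes. Its r with the 5 measured genes (Adipoq, Fabp4, Cidea, Retn and Thrsp) was 0.845 (permutation p = 7e-05, adjusted 0.00077) and rho 0.859 (permutation p = 7e-05, adjusted 0.00098). Within 160 mg/kg r was 0.896 (exact p = 0.00327, n = 8), within 40 mg/kg 0.857 (exact p = 0.00652, n = 8), and without the 2 tumours farthest from the median 0.820 (permutation p = 0.00042). The adipocyte sum ran from 174.5 to 2193.2 at 160 mg/kg and from 240.8 to 1062.9 at 40 mg/kg, against 638.4 to 1795.4 in vehicle. Fabp4 (r = 0.824) and Adipoq (0.822), both in the list, were also the genes closest to Car3 of all those compared, followed by Dhdh (0.820). None of the 5 adipocyte genes passed against vehicle in limma.

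Skeletal muscle genes related to Car3 in a way that differed in value between doses, a difference that was not tested. Over all treated tumours r was 0.519 (adjusted permutation p = 0.107), within 160 mg/kg 0.066 (exact p = 0.894, n = 8) and within 40 mg/kg 0.954 (exact p = 0.000843, n = 8). The highest Car3 signal, 2140.4 in 40 mg/kg tumour 5, came with the highest muscle sum, 26905. In 160 mg/kg tumour 7 a muscle sum of 12336 came with a Car3 signal of 406.8, and in 160 mg/kg tumour 4 a sum of 488 came with 978.5 and with the highest adipocyte sum. Without 40 mg/kg tumours 5 and 6, r was 0.139. With 1 tumour left out, r ran from 0.306 to 0.647 and passed after adjustment in 2 of 16 fits.

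**Figure D3:**
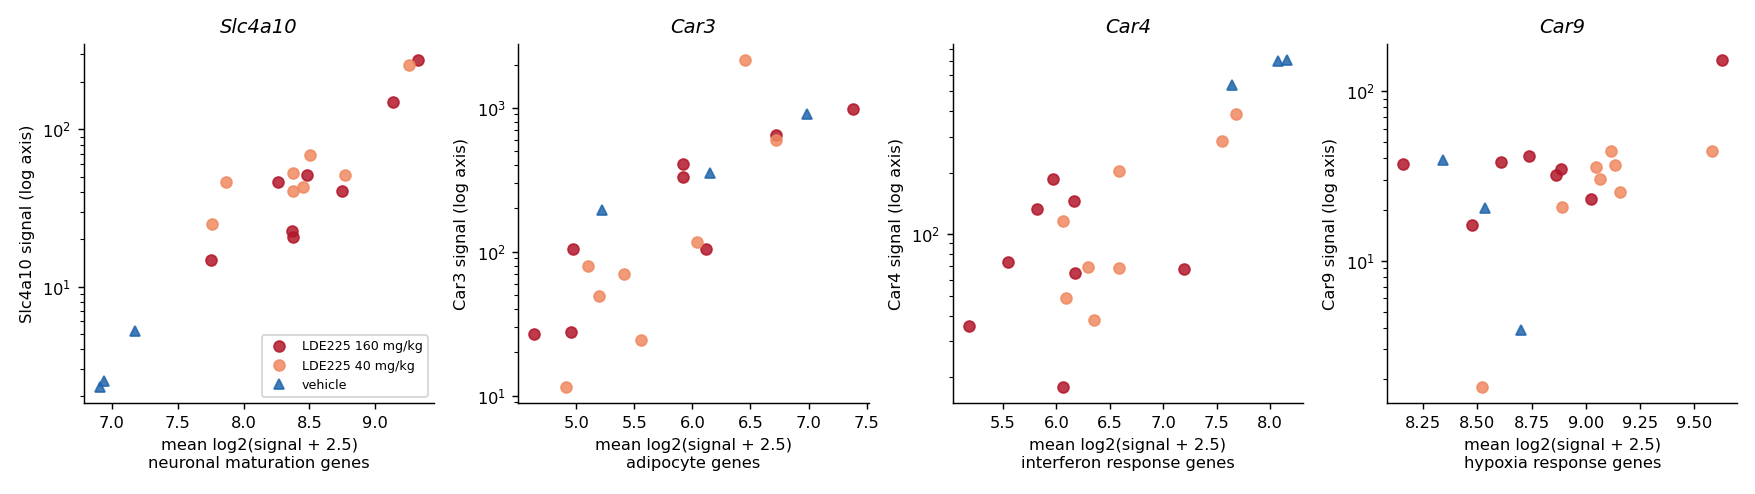
Signal of Slc4a10, Car3, Car4 and Car9 (log axes) against the mean log2(signal + 2.5) of the list named below each panel, with 1 point per tumour; circles are the treated tumours used for the correlations and triangles the vehicle tumours, which were not used. Slc4a10 and Car3 climb with their lists among treated tumours (r = 0.846 and 0.845), whereas Car4 and Car9 (r = 0.552 and 0.538) did not pass after adjustment.

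Car4 against interferon genes had an r of 0.552 (adjusted permutation p = 0.107), with 0.115 within 160 mg/kg (exact p = 0.791, n = 8) and 0.815 within 40 mg/kg (exact p = 0.012, n = 8). It was 0.149 without 40 mg/kg tumours 6 and 8, so the relation rests on those tumours. Against vehicle, 12 of the 16 measured interferon genes fell in limma and 0 rose, and Ifit1, an interferon-induced RNA-binding protein, was at 69.3 ± 48.8 and 148 ± 131 at 160 and 40 mg/kg, against 608 ± 141 in vehicle (log2 -2.85, limma adjusted p = 0.00513). The count of fallen genes was 7, 4 and 3 without vehicle tumour 1, 2 or 3. Over the whole array 1.83% of probe sets were called lower. This list too was chosen with earlier results known, so its count and the p-value of Ifit1 are no independent result. Car4 did not pass against endothelial genes (r = 0.304, adjusted permutation p = 0.320), although lung and other capillaries are a known site of the enzyme. Its nearest genes were Ndufaf1 (r = 0.771), Itpk1 (0.771) and Pip4p1 (0.766), and 0.771 was the lowest top value among the 10 genes.

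Car9 against 22 hypoxia genes had an r of 0.538 (adjusted permutation p = 0.107). The values within 160 mg/kg, 0.674 (exact p = 0.0897, n = 8), and within 40 mg/kg, 0.839 (exact p = 0.00491, n = 8), were both higher than over the doses together. Its extremes matched the list in part: 160 mg/kg tumour 8, with the highest Car9 signal of 151.5, had a hypoxia sum of 30334 in a range of 16158 to 33276 among treated tumours. The lowest Car9, 1.8, was in 40 mg/kg tumour 5, whose sum of 18898 was the lowest of its dose. The next lowest Car9 signal of that dose was 20.8. The value within 40 mg/kg includes tumour 5, and none without it is given here. Without 160 mg/kg tumour 3, which had the lowest hypoxia sum and a Car9 signal of 37.0, r was 0.684 and passed after adjustment. That was 1 of 16 fits leaving out 1 tumour, with r from 0.361 to 0.684, and no other fit passed. Over all 16 tumours the rank correlation was lower, with a rho of 0.397 (adjusted permutation p = 0.312). None of the 22 hypoxia genes passed against vehicle in limma, with 7 at an unadjusted p under 0.05. The nearest gene to Car9, Ciart, had an r of 0.924 and a rho of 0.656.

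Car8 did not relate to the Purkinje cell list (r = 0.145, adjusted permutation p = 0.589), of which Pcp2, Pcp4 and Calb1 were measured. The genes closest to it, chosen from 12725 and therefore given as a description, were Lhfpl3 (r = 0.953, rho = 0.953), Sema3d (r = 0.938, rho = 0.935) and Gpr17 (r = 0.922, rho = 0.909). Lhfpl3 and Gpr17 are known from oligodendrocyte precursors and their early progeny, and Sema3d encodes a secreted guidance protein. Gpr17 belonged to the oligodendrocyte list, whose summed signal was 7828.5, 7259.3 and 7543.9 in 40 mg/kg tumours 7, 1 and 2, where Car8 was at 160.3, 155.3 and 66.6. In 160 mg/kg tumours 3 and 8, with Car8 at 123.9 and 86.8, the sums were 4009.0 and 6611.9. In vehicle the sums were 1884.2 to 2251.5. The sum did not follow Car8 everywhere: in 160 mg/kg tumour 4 Car8 was at 67.9 with a sum of 1699.6, below all vehicle tumours. In 160 mg/kg tumour 5 a sum of 4305.8 came with Car8 at 27.3. The sum also contains Gpr17, picked for its likeness to Car8, at 1128.9, 365.9 and 454.0 in 40 mg/kg tumours 7, 1 and 2. The part of such cells in the level of Car8 was not tested.

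**Figure D4:**
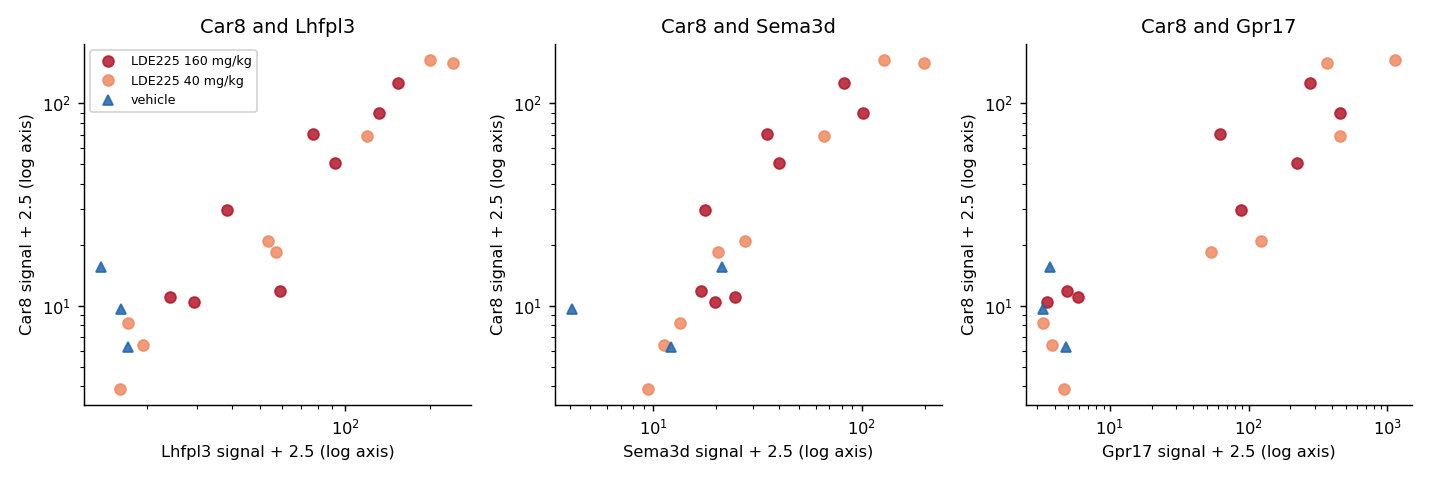
Car8 signal plus 2.5 against that of Lhfpl3, Sema3d and Gpr17 in each tumour (log axes), with circles for treated and triangles for vehicle tumours. Across the 16 treated tumours r was 0.953, 0.938 and 0.922, in genes selected for this likeness, and the vehicle tumours lie at the low end of Car8.

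Car2, an enzyme of oligodendrocytes and red cells, had an r of 0.396 with oligodendrocyte genes (adjusted permutation p = 0.225) and 0.482 with erythroid genes (adjusted permutation p = 0.114). Its nearest genes were Flcn (r = 0.828), Cpt1a (0.815) and Ctso (0.814). Car14 ran against the neuronal list with an r of -0.497 (adjusted permutation p = 0.114), and Car10 and Car11 had -0.325 and 0.330 (adjusted permutation p = 0.309 each). The nearest genes of Car14 were Mast4 (r = 0.876), Cep162 (0.848) and Ptprf (0.808). Those of Car10 were Bbs12 (0.842), Wasl (0.780) and Tmem171 (0.757), and those of Car11 Dixdc1 (0.849), Ftsj1 (0.830) and Wbp2 (0.818).

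Slc4a4 had an r of 0.229 with genes of astrocytes and radial glia (adjusted permutation p = 0.461). Among the 45 pairs of the 10 genes it stood out with Slc4a10, at an r of 0.833 (permutation p adjusted over the 45 pairs 0.0045), 0.932 within 160 mg/kg and 0.619 within 40 mg/kg. The rank correlation was lower, with a rho of 0.597 (adjusted 0.451), and without the 2 farthest tumours r was 0.771. Tumours with high signals of both were 160 mg/kg tumour 8 (90.2 for Slc4a4 and 275.2 for Slc4a10), 40 mg/kg tumour 2 (82.1 and 258.3) and 160 mg/kg tumour 7 (43.9 and 148.8). In the other pairs r did not pass. The genes closest to Slc4a4 were Sfxn3 (r = 0.912), Cnksr3 (0.891) and Rgl3 (0.885).

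Other genes of acid and bicarbonate handling were listed by family and tested against vehicle. Of the 8 other carbonic anhydrases 4 passed the filter (Car7, Car12, Car13 and Car15) and 0 changed in limma, also at an unadjusted p under 0.05, with a median log2 difference of -0.34. Car15 had the largest difference, -0.72, with a limma adjusted p of 0.343 and 12 treated tumours below all vehicle tumours. All 4 genes were dim, with group means of 14.9 to 39.3 against a filter cut of 19.7 to 33.3. The lack of calls therefore says little about them.

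Of the other bicarbonate transporters of the Slc4 family, 5 of 8 were measured, 1 fell, 1 rose and 3 did not pass. Slc4a2, an exchanger of chloride for bicarbonate in most cell types, ran from 53.0 to 97.9 at 160 mg/kg and from 71.3 to 128.5 at 40 mg/kg, against 162.0, 158.4 and 179.5 in vehicle. In 16 of 16 treated tumours it was below the lowest vehicle tumour (log2 -0.83, SE 0.16, limma adjusted p = 0.00723), and the adjusted p was 0.0721 without vehicle tumour 3, when the call was lost. Slc4a3, an exchanger of neurons and heart, was at 70.4 ± 17.1 and 83.2 ± 12.7 at 160 and 40 mg/kg, against 63.5, 33.2 and 44.6 in vehicle (log2 0.69, SE 0.19, limma adjusted p = 0.0465). That call was kept in 6 of 19 fits that left out 1 tumour, with adjusted p from 0.033 to 0.234, and a dim second probe set, 1453687_at, pointed the other way (log2 -1.08, limma adjusted p = 0.252). At 160 mg/kg alone Slc4a3 did not pass (limma adjusted p = 0.131).

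The other families showed no call against vehicle in limma. This held for 4 measured Slc26 anion exchangers of 11 listed, with 3 at an unadjusted p under 0.05, for 5 Slc9 sodium-proton exchangers of 9, with 0, and for 5 monocarboxylate carriers and chaperones of 6, with 1. Their median log2 differences were -0.30, -0.27 and 0.15. Bsg, the chaperone of lactate carriers, had the smallest p of the third family (log2 0.35, SE 0.16, limma adjusted p = 0.204). Between 160 and 40 mg/kg 0 genes of any of these lists were called.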

How the data were processed

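Deposited values are MAS5 signal intensities, made by the authors on a linear scale for each array, per the submitters' processing notes. No source used here states the scaling target. The labels name the 430A 2.0 array, whereas the annotation that lists the 45101 probe sets is that of the Mouse 430 2.0 array. Removing 64 control probe sets left 45037, and 34945 of them carried exactly 1 symbol. No batch was named, so none could be tested.

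Signals were tested as log2(signal + 2.5), 2.5 being the 10th percentile, without further normalization, with limma 3.58.1 in R 4.3.3 (lmFit and eBayes with a variance trend, 1 fit of 3 group means, 16 residual degrees of freedom). The treated contrast is the mean of both doses minus vehicle. P-values are two-sided, adjusted by the Benjamini-Hochberg method over 31143 kept probe sets. Fold changes on this scale understate those of dim genes. A gene's representative was its kept probe set with the highest mean log2 level. Correlations used 100000 permutations over 16 tumours or all permutations within a dose (scipy 1.17.1). The members and lists were chosen with earlier results of these data known. Named were all members, in the lists of other cell types and pathways only called genes or those a result turns on, and the 3 genes most correlated with each member; genes of the acid-handling families named without a call were chosen after their values were seen. Some listed genes were not analysed here. The fit was tested on simulated data. For both doses against vehicle it recovered 57% of log2 changes of 1 and 92% of those of 2, with 4.49% false. For 160 against 40 mg/kg it recovered 71% and 97%, with 6.15% false. Changes of log2 1 can thus go uncalled. Groups came from the sample descriptions. The number of arrays, 3 of them vehicle, limits precision. Replicate numbers recur across groups without a stated link, and same-numbered arrays did not deviate together (r -0.128 to 0.090 over 14 pairs), so no block entered the fit. Alternatives were other pseudocounts, filters and normalizations, no variance trend, array weights, the compared groups alone, a replicate block and leaving out arrays.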

Additional observations from a re-analysis of the deposited data

Results flagged for a closer look

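In 30 groups of 8 tumours (15 probe sets at 2 doses), 3 had a tumour far from the others by Dixon's test at the 95% level, which chance gives in about 1 of 20 groups. Car9 was at 151.5 in 160 mg/kg tumour 8, with the next highest tumour of that dose at 41.2. Car9 was at 1.8 in 40 mg/kg tumour 5, with the next lowest of that dose at 20.8. Slc4a10 was at 258.3 in 40 mg/kg tumour 2, with the next highest of that dose at 68.5. At 160 mg/kg the high Slc4a10 signals came from tumours 7 and 8 together (148.8 and 275.2), so no single tumour stood apart there.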

How the results depend on the processing

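Calls over the whole array against vehicle (1392 for both doses, 1260 for 160 mg/kg and 668 for 40 mg/kg) moved with the treatment of the arrays; the cause was not tested. With array weights they were 8907, 6145 and 7452, without vehicle tumour 3 and 160 mg/kg tumour 2 they were 274, 220 and 169, and with 1 tumour left out they ran from 243 to 1662, 217 to 1544 and 120 to 915. The replicate block gave 819, 842 and 324, and the compared groups alone 629 for 160 mg/kg and 1553 for 40 mg/kg. Between the doses the count was 0, and 1 without the variance trend. Subtracting array medians gave 825 higher and 199 lower calls for both doses, against 822 and 570. Of the 15 probe sets described, those called against vehicle (3, 3 and 2) became 7 (both doses) and 8 (40 mg/kg) with array weights, 1 at 40 mg/kg with no filter or no variance trend, 0 in each without the 2 arrays least like the others, and ran from 0 to 3 in each with 1 tumour left out. The 160 against 40 mg/kg count of these probe sets was 0 in every alternative run. The relations to lists that passed (2) were 5 within 40 mg/kg and 2 to 3 with 1 tumour left out, and those of Slc4a10 with neuronal maturation (r from 0.798 to 0.888) and Car3 with adipocyte genes (0.831 to 0.867) passed in 16 of 16 such fits. No result reversed its direction while called. Car4 stayed below and Slc4a10 above vehicle in every alternative run. Their signals did not overlap between treated and vehicle tumours, so these runs could hardly change the direction and add no support.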
